A study of Mus musculus with 5 samples.

Results

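Transcripts of enzymes that build cholesterol were followed in RNA of microvesicles released by cultured mouse heart cells, with the cells themselves for comparison. The genes were given as a list of 8 and were looked up by gene symbol: Hmgcs1, Mvd, Idi1, Fdps, Fdft1, Sqle, Lss and Cyp51. Of these, 7 matched a probe, with 8 probes in all among the 25697 probes (16593 named genes) of the array. Sqle has 2 probes. Fdft1, squalene synthase, was not analysed here.

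Cholesterol is made from acetyl-CoA by way of mevalonate. Hmgcs1 makes the precursor of mevalonate in the cytosol, Mvd and Idi1 turn mevalonate into the active isoprene units, and Fdps joins these units into farnesyl diphosphate, which also feeds protein prenylation and other branches. Sqle oxidises squalene, Lss closes it into the ring of lanosterol, and Cyp51 removes a methyl group from lanosterol. The genes of the pathway are known as shared targets of the transcription factor Srebf2, which is released when membrane sterol is low.

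HL-1 cells were the source, a line of atrial heart muscle cells that goes back to an atrial tumour of a transgenic mouse with the simian virus large T antigen under the atrial natriuretic factor promoter. All material came from HL-1 cultures in Claycomb medium, with no treatment named in the labels, as total RNA of their microvesicles (2 arrays), DNA of their microvesicles (1 array) and total RNA of the cells (2 arrays). A poly-T tail had been added to the DNA, which was then copied and labelled in the manner of RNA. Each extract was hybridised as cRNA to a 1-colour Illumina BeadChip, where a probe's signal is the mean intensity of a median of 41 beads. Microvesicle RNA array 1 shared chip 1 with both cell arrays, while microvesicle RNA array 2 shared chip 2 with the DNA array. Separate cultures for the replicates are not stated, and p-values measure the spread between these arrays only. In such bulk material fewer vesicles and less RNA in each cannot be told apart.

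A probe counted as detected at a detection p under 0.01, the share of negative controls at or above its signal. Detected were 21.8% and 7.88% of all probes on microvesicle RNA arrays 2 and 1, 1.33% on the DNA array, and 16.3% and 14.1% on cell RNA arrays 1 and 2. The median raw signal was 90.9 on microvesicle RNA array 2, 63.0 on microvesicle RNA array 1, 70.2 on the DNA array, and 63.6 and 62.6 on the cell arrays. The replicate microvesicle arrays stood far apart. Over the 3878 tested probes, the median absolute log2 difference between replicates was 1.29 for the microvesicle arrays and 0.16 for the cell arrays. Of 10 cardiomyocyte marker genes, 9 were detected on microvesicle array 2, 4 on microvesicle array 1 and 8 on each cell array, and the calcium release channel gene Ryr2 was detected on none. Of 20 measured markers of fibroblasts, endothelium, macrophages, smooth muscle and hepatocytes, 0 were detected on either microvesicle array and 2 on each cell array, Tek and Tagln.

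Transcripts of 5 of the 7 enzymes were detected in the cells and in at least 1 microvesicle RNA sample. Fdps, Mvd, Hmgcs1 and Sqle were detected on both microvesicle arrays, Cyp51 on microvesicle array 2 alone of them, and Idi1 and Lss on no array. By probe, 6 of 8 were detected on microvesicle array 2 and 4 on array 1, against 6 on each cell array. Of the 6 member probes detected on both cell arrays, 6 were detected on microvesicle array 2, 4 on microvesicle array 1 and 4 on both. Among all 3470 such probes these shares were 59.8%, 54.1% and 44.1%.

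**Figure D1:**
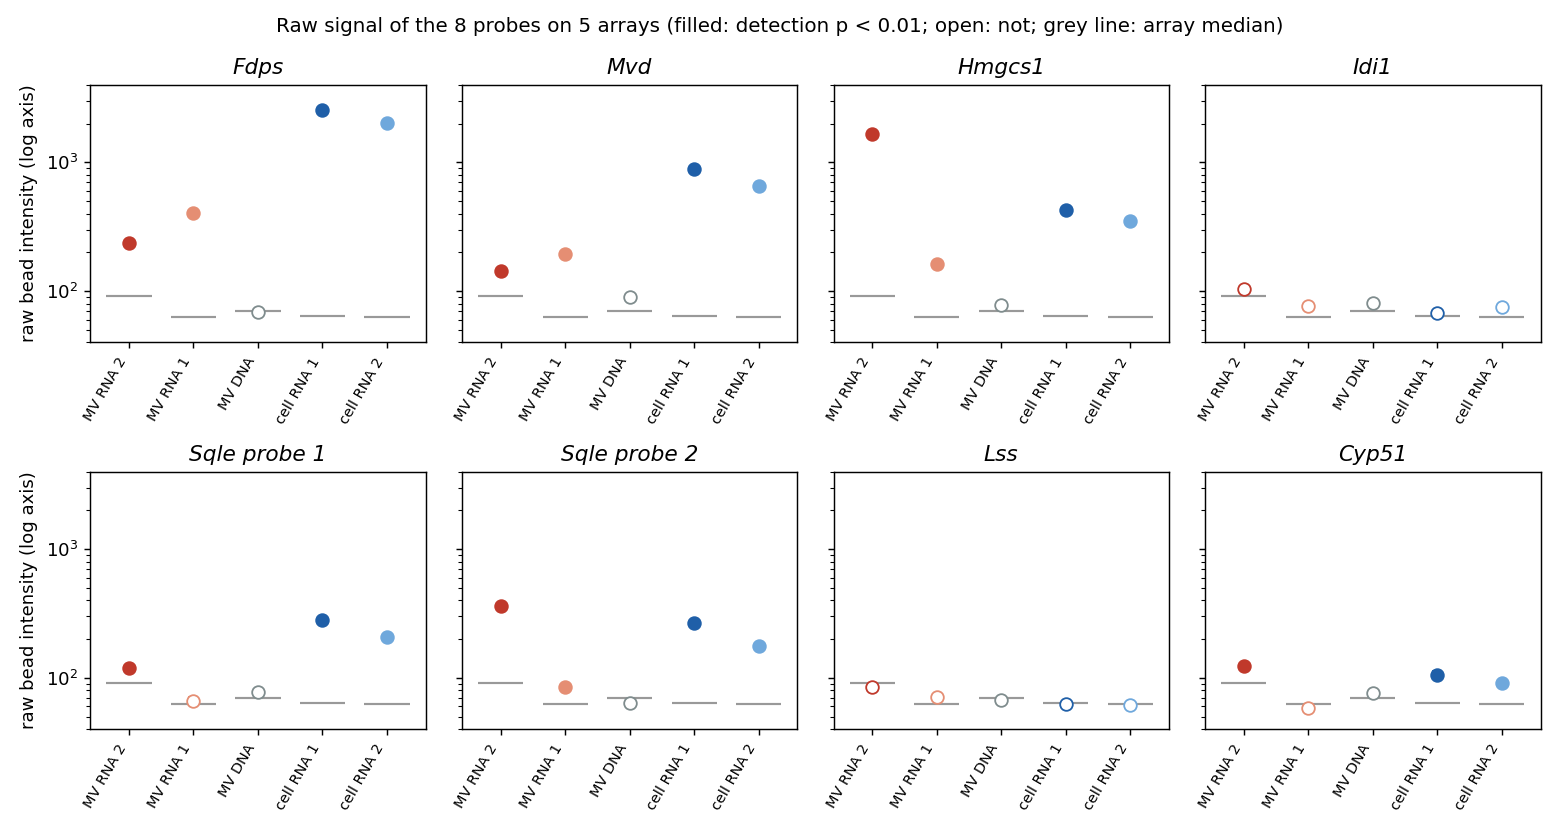
Raw bead intensity (log axis) of the 8 probes on microvesicle (MV) RNA arrays 2 and 1, the microvesicle DNA array and cell RNA arrays 1 and 2. Bars are the standard error over beads (mostly smaller than the points), filled points have a detection p under 0.01 and grey lines are array medians. Fdps and Mvd were brightest on the cell arrays and Hmgcs1 on microvesicle RNA array 2, while Idi1, Lss and every DNA point were open.

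Hmgcs1, the cytosolic HMG-CoA synthase at the head of the pathway, had the highest mean microvesicle value relative to the cells among the 6 tested member probes. Its raw signal was 1650 ± 51.1 on microvesicle RNA array 2 and 162 ± 8.60 on array 1, against 427 ± 16.7 and 348 ± 18.9 on cell RNA arrays 1 and 2 (SE over beads). Normalized log2 values were 10.36 and 8.77 on microvesicle arrays 2 and 1, against 8.10 and 8.24 on cell arrays 1 and 2. Both microvesicle arrays thus lay above both cell arrays on the quantile-normalized scale, which 14.4% of all tested probes did. The mean difference was 1.40 ± 0.68 (SE, n = 2 per group) and did not pass the test across all tested probes (limma adjusted p = 0.266). The position of microvesicle array 1 depended on the scaling. With each array shifted to a common median, Hmgcs1 stood at 1.999 relative to the cell mean on array 2 and at -1.52 on array 1.

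Mvd, the mevalonate diphosphate decarboxylase, was detected on all 4 RNA arrays. Its raw signal was 143 ± 5.64 on microvesicle array 2 and 196 ± 9.80 on array 1, against 892 ± 47.5 and 661 ± 23.8 on cell arrays 1 and 2. On the normalized scale it had 5.51 and 9.17 on microvesicle arrays 2 and 1, against 9.17 and 9.20 on cell arrays 1 and 2. On this scale microvesicle array 1 was at the level of the cells, and microvesicle array 2 was far below them. The mean difference was -1.84 ± 1.41 (SE, n = 2 per group, limma adjusted p = 0.425), and its 95% interval reached from -5.93 to 2.25. With a median shift in place of quantile normalization both vesicle arrays were below the cells, at -3.52 on array 2 and -2.23 on array 1 relative to the cell mean. The mean difference then passed the threshold (-2.87, limma adjusted p = 0.0194). Under that scaling 1651 of the 3878 tested probes passed it as lower, so such a call was common.

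Fdps, the farnesyl diphosphate synthase, repeated this arrangement. Raw signals were 235 ± 8.29 on microvesicle array 2 and 401 ± 18.9 on array 1, against 2538 ± 119 and 2022 ± 93.3 on the cell arrays. Normalized log2 values were 6.80 on microvesicle array 2 and 10.38 on array 1, against 10.78 and 10.81 on cell arrays 1 and 2. Array 1 stood at -0.42 and array 2 at -3.998 relative to the cell mean, and neither reached the lower of the cell arrays. The same held for 51.6% of all tested probes, so this position by itself is common on these arrays. The mean difference was -2.21 ± 1.37 (SE, n = 2 per group, limma adjusted p = 0.347). Its 95% interval reached from -6.21 to 1.79. With a median shift array 2 stood at -3.97 and array 1 at -2.59, and the mean difference of -3.28 passed the threshold (limma adjusted p = 0.0161). So did 1651 of the 3878 tested probes, as lower, under that scaling.

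Sqle, squalene epoxidase, gave different pictures with its 2 probes, which the platform annotation assigns to the same gene symbol. Probe 1 had raw signals of 120 ± 4.89 and 66.2 ± 4.44 on microvesicle arrays 2 and 1, against 281 ± 17.3 and 208 ± 10.4 on cell arrays 1 and 2. It was not detected on microvesicle array 1, where a share of 0.232 of the negative controls lay at or above it. Its normalized log2 values were 5.07 and 4.64 on microvesicle arrays 2 and 1, against 7.42 and 7.41 on the cell arrays, with both microvesicle values below both cell values. The difference of -2.56 ± 0.36 (SE, n = 2 per group) had the smallest p of the members, 0.00308 before adjustment and 0.0917 in limma after it. That adjusted p was shared by 215 probes, and 23.2% of all tested probes were lower at an unadjusted p under 0.05. Sqle probe 1 was the member with the narrowest interval, from -3.60 to -1.52. Its value on microvesicle array 1 was not above background, and that on array 2 was near the lowest detected value there, 4.88. The narrow interval thus rests on values at or near background, and the size of the difference is not measured precisely.

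Probe 2 of Sqle was detected on all 4 RNA arrays. Raw signals were 359 ± 13.1 and 85.0 ± 4.14 on microvesicle arrays 2 and 1, against 269 ± 14.4 and 177 ± 9.19 on cell arrays 1 and 2. On the normalized scale it had 7.73 and 6.88 on microvesicle arrays 2 and 1, against 7.36 and 7.15 on cell arrays 1 and 2. The groups overlapped, and the difference was 0.05 ± 0.46 (SE, n = 2 per group, limma adjusted p = 0.947, 95% interval -1.28 to 1.38). Of the 439 genes with several tested probes, 118 likewise had probes of opposite sign. The mean of both Sqle probes was -1.25.

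Cyp51, the lanosterol demethylase, was dim on every array. Its raw signal was 124 ± 6.09 on microvesicle array 2 and 58.2 ± 3.17 on array 1, against 105 ± 6.98 and 90.9 ± 5.31 on cell arrays 1 and 2. It was not detected on microvesicle array 1, where its signal was below the array median. Normalized log2 values were 5.15 and 4.34 on microvesicle arrays 2 and 1, against 5.77 and 5.83 on the cell arrays, and the groups did not overlap. The fitted difference was -1.05 ± 0.44 (SE, n = 2 per group, limma adjusted p = 0.224, 95% interval -2.33 to 0.23). It takes in a value not above background on microvesicle array 1 and is no measured size. Without normalization between arrays, microvesicle array 2 was 0.05 above the cell mean.

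Idi1, the isopentenyl diphosphate isomerase, and Lss, lanosterol synthase, were not detected on any array at the threshold used. Idi1 had raw signals of 103 and 76.5 on microvesicle arrays 2 and 1, against 67.0 and 74.8 on cell arrays 1 and 2. Its detection p-values of 0.0414 and 0.0226 on microvesicle arrays 2 and 1 and 0.0251 on cell array 2 would pass a threshold of 0.05, and that of 0.167 on cell array 1 would not. Lss had raw signals of 84.8 and 70.5 on microvesicle arrays 2 and 1, against 63.0 and 61.6 on cell arrays 1 and 2, with detection p-values from 0.0952 to 0.451. Neither gene gave a level that could be set between groups.

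**Figure D2:**
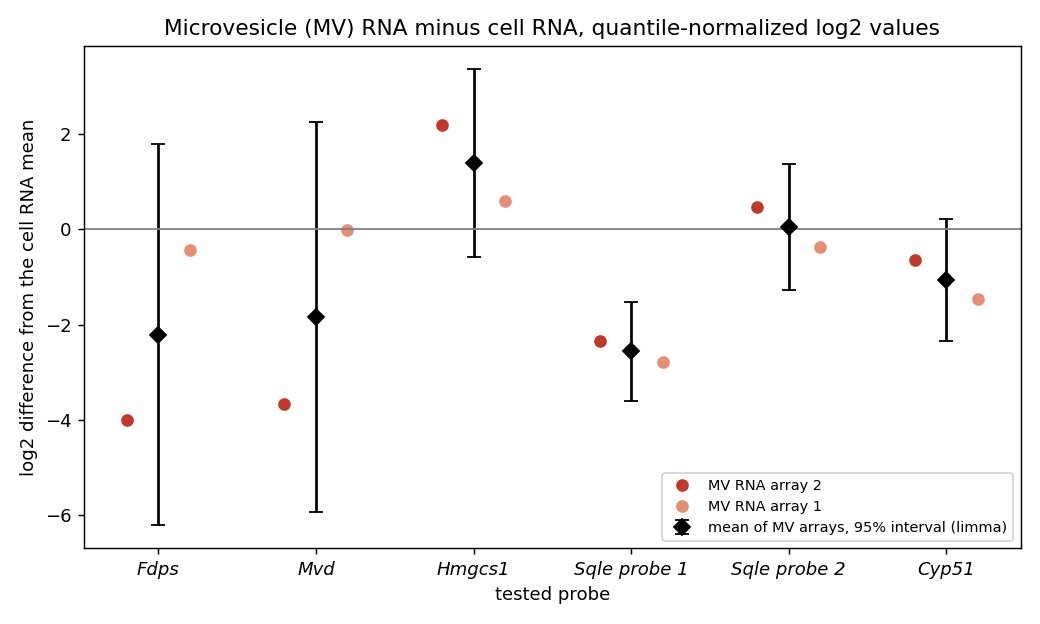
Log2 difference from the cell RNA mean of each tested probe, for microvesicle (MV) RNA arrays 2 and 1 (circles) and their mean with its 95% interval from limma (diamonds). On this quantile scale Fdps and Mvd lay at -3.998 and -3.67 on array 2 and near the cells on array 1 (with a median shift, at -2.59 and -2.23 on array 1). Hmgcs1 was above 0 on both arrays. The interval of Sqle probe 1 alone left out 0, with microvesicle values at or near background.

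Of the 6 tested member probes, 0 passed the adjusted threshold of 0.05 in limma, as did 0% of all 3878 tested probes in either direction. At an unadjusted p under 0.05, 1 member probe was lower and 0 were higher, against 23.2% and 5.52% of all tested probes. The count of 0 rested on the scaling and on which microvesicle array was kept, with 3 member probes lower after a median shift (1658 of all tested probes called) and 5 called without microvesicle array 1 (3391 of all). The microvesicle values lay wholly below the cell values in 3 member probes and wholly above in 1, and in 2 the groups overlapped. All tested probes gave 51.6% below and 14.4% above, so these counts are close to the background. The median difference over the 5 tested member genes was -1.05, with the brightest probe for each gene, against -0.84 over all 3123 tested genes. That member median is the value of Cyp51, which was not above background on microvesicle array 1. Over all 7 measured members it was 0.05, against 0.02 over all measured genes. All 6 tested member probes were detected on both cell arrays and would have entered the test whatever the vesicles held, so counts and medians over them are a description only.

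The microvesicle RNA arrays were then compared with each other, gene by gene. The members detected on both arrays split between those with less and those with more signal on array 2. Mvd and Fdps were lower on array 2 than on array 1 with log2 differences of -3.66 and -3.57, which is 12.6-fold and 11.9-fold. Hmgcs1 was higher on array 2 by 1.59 (3.01-fold) and Sqle probe 2 by 0.85. Cyp51 and Sqle probe 1 were detected on array 2 and not on array 1, so no size is given for them. With 1 array on each side there is no test, and array and chip cannot be told apart. Between the cell arrays the 6 tested probes differed by at most 0.22.

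At least 2-fold lower on array 2 were 2 of the 6 member probes, against 45.1% of all tested probes, and at least 2-fold higher was 1, against 12%. On the quantile scale 3.71% of all tested probes had a lower difference than Fdps, and 3.15% a lower one than Mvd. A share of 8.1% of tested probes was further up than Hmgcs1. These ranks are given for this scale only. The members were chosen with earlier results of these data known, so the ranks are a description only. The median over all tested probes was -0.72.

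**Figure D3:**
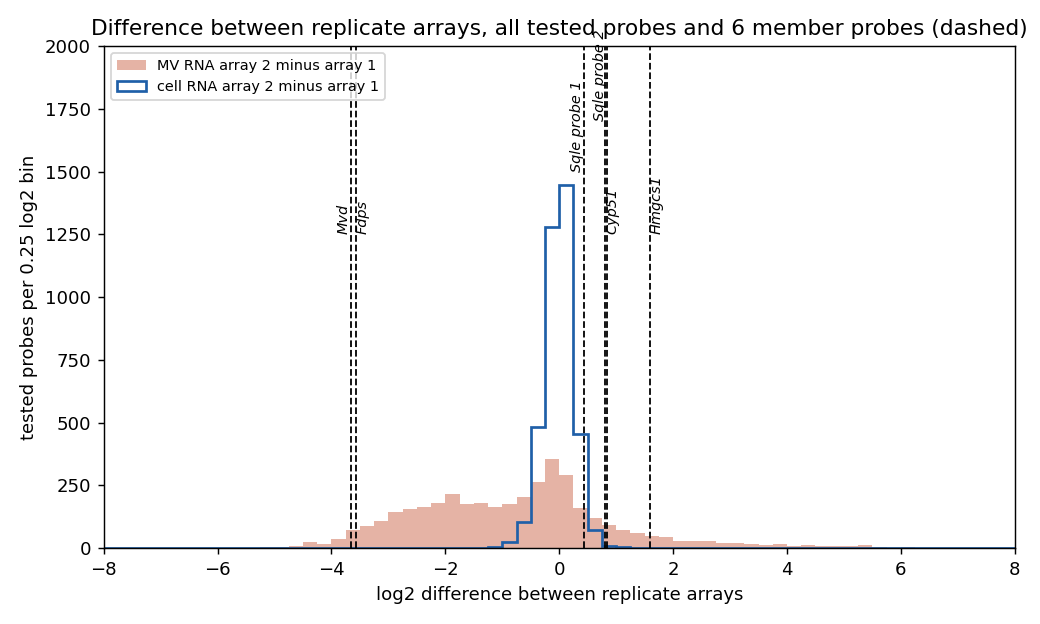
Histogram of the log2 difference between replicate arrays over 3878 tested probes, for microvesicle (MV) RNA (filled) and cell RNA (outline), with the 6 tested member probes as dashed lines. The microvesicle arrays spread widely around a median of -0.72, and the members fall at -3.66 (Mvd), -3.57 (Fdps) and at 0.85 (Sqle probe 2) and 1.59 (Hmgcs1), while the lines of Cyp51 and Sqle probe 1 rest on values not above background on array 1.

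The size of these steps depended on the scaling, and the direction of each was the same under all 5 scalings run. The median over all tested probes itself moved to 0.17 with a median shift and to 0.46 with no normalization. With no normalization between arrays, Fdps was at -1.10, Mvd at -1.01 and Hmgcs1 at 3.80 on array 2 relative to array 1. Even the raw signals, with the higher background of array 2, were 1.71-fold (Fdps) and 1.37-fold (Mvd) brighter on array 1. The raw signal of Hmgcs1 was 10.2-fold brighter on array 2. Setting one gene's change against another's takes out a log2 shift that is common to all probes of an array. It does not take out a difference in background or one that varies with the signal. Hmgcs1 and Fdps moved apart by 5.16 log2 units between arrays 2 and 1 on the quantile scale and by 4.90 with a median shift. Hmgcs1 and Mvd moved apart by 5.25 and 4.81, and by 3.98 without background correction. The change of Mvd less that of Fdps was -0.09 on the quantile scale, 0.09 with a median shift and 0.42 without background correction.

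Relative to the cells, Hmgcs1 stood above Fdps on both vesicle arrays, by different amounts. On array 2 Hmgcs1 stood 6.19 log2 units above Fdps in its difference from the cell mean, and on array 1 it stood 1.03 above. With a median shift these gaps were 5.97 and 1.07. Without background correction they were 5.31 and 0.91, and in the authors' processed values 5.42 and 0.73. A median shift cannot alter a gap between genes of an array, so it and the setting with no normalization give the same gaps.

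**Figure D4:**
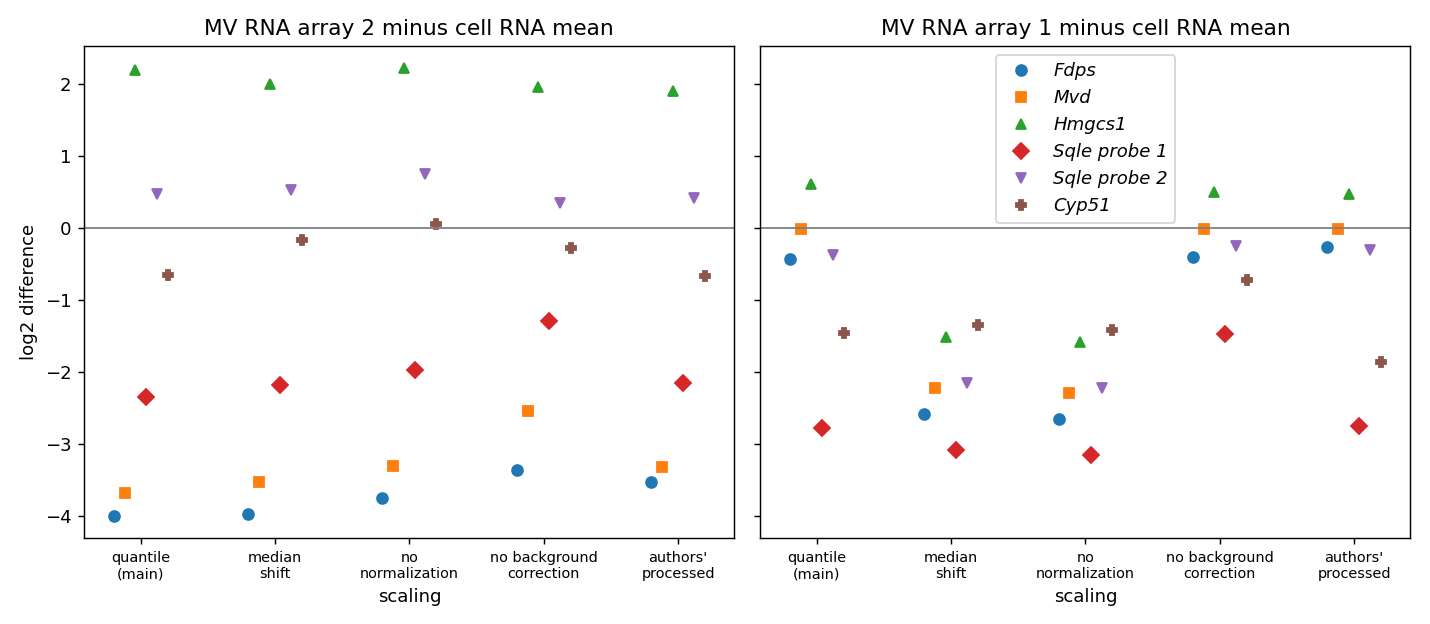
Log2 difference of the tested member probes from the cell RNA mean on microvesicle (MV) RNA array 2 (left) and array 1 (right) under 5 scalings. On array 2 the rank order of the probes was the same throughout, although Cyp51 crossed 0 with no normalization, with Hmgcs1 between 1.90 and 2.22 and Fdps between -3.998 and -3.36, while on array 1 a median shift or no normalization moved all 6 probes below 0.

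Genes whose profile was most like that of Fdps were looked for among 3118 other tested genes, by the mean absolute difference of normalized log2 values over the 4 RNA arrays. The nearest were Mrps34, a mitochondrial ribosomal protein gene (0.12), Eif3i, a subunit gene of a translation initiation factor (0.13), the proton pump subunit gene Atp6v0e (0.21), the vitamin K epoxide reductase gene Vkorc1 (0.22) and the splicing factor gene Prpf19 (0.24). None of them belongs to the sterol lists. Mrps34 had 6.69 and 10.48 on microvesicle arrays 2 and 1, against 10.85 and 11.02 on cell arrays 1 and 2. With 4 arrays, such likeness describes the arrays only.

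On the microvesicle DNA array 0 of the 8 member probes were detected, where 1.33% of all probes were. Their raw signals lay between 63.8 (Sqle probe 2) and 89.4 (Mvd) against an array median of 70.2. Mvd had the smallest detection p, 0.0301, and the other members had values from 0.14 to 0.694.

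The rest of the sterol pathway was read from 4 further lists with 45 genes, of which 33 matched a probe and 7 were tested. Of the 7, 0 passed the adjusted threshold in limma in either direction, as did 0% of all tested probes. At an unadjusted limma p under 0.05 there were 0, against 5.52% higher and 23.2% lower among all tested probes. Of the other cholesterol synthesis enzymes, 10 of 14 had a probe and 1 was tested. This was Nsdhl, a sterol dehydrogenase acting after Cyp51, whose other probes were detected on no array. Its tested probe had 4.42 and 5.45 on microvesicle arrays 2 and 1, against 5.77 and 5.74 on cell arrays 1 and 2. The probe was detected on neither microvesicle array, so the fitted difference of -0.82 ± 0.50 (SE, n = 2 per group, limma adjusted p = 0.341) is set against values not above background and is no measured size.

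Of 8 sterol-sensing regulators with a probe, 6 were detected on microvesicle array 2 and 3 on array 1, against 4 on each cell array. Srebf2, the factor that drives these genes, was detected on all 4 RNA arrays, with 5.01 and 7.98 on microvesicle arrays 2 and 1, against 7.46 and 7.69 on cell arrays 1 and 2. Its raw signal was 117 on microvesicle array 2 and 114 on array 1, at array medians of 90.9 and 63.0, whereas Fdps and Mvd were brighter on array 1 in raw signal too. Its difference from the cells was -1.08 ± 1.16 (SE, n = 2 per group, limma adjusted p = 0.553). Mbtps1, a protease that cuts Srebf2 in the Golgi, had 5.19 and 7.22 on microvesicle arrays 2 and 1, against 7.11 and 7.01 on cell arrays 1 and 2, by its tested probe. The raw signal of that probe ran the other way, with 126 on array 2 and 91.5 on array 1, and another probe, detected on array 2 alone, had 5.18 there. The sterol-sensing nuclear receptor gene Nr1h3 had 4.92 and 6.94 on microvesicle arrays 2 and 1, against 6.23 and 6.25 on the cell arrays, and its raw signal too was brighter on array 2 (112) than on array 1 (86.0). These raw signals of Mbtps1 and Nr1h3 include the higher background of array 2 (array medians of 90.9 and 63.0 on arrays 2 and 1). Insig1, which holds Srebf2 back in the endoplasmic reticulum, had 6.46 on array 2 by its tested probe and was not detected on array 1, against 5.66 and 5.79 on the cell arrays. Other Insig1 probes, detected on array 2 alone, had 6.32 and 7.83 there, and a further probe was detected on no array. Differences from the cells were -0.31 ± 0.82 for Nr1h3, within the SE, and -0.85 ± 0.82 for Mbtps1. The fitted -0.18 ± 0.76 for Insig1 takes in a value not above background on array 1 and is no measured size.

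Of the branches that leave the pathway at farnesyl diphosphate, the farnesyltransferase subunit genes Fnta and Fntb were tested. Fnta had 8.18 and 9.33 on microvesicle arrays 2 and 1, against 8.64 and 8.34 on cell arrays 1 and 2 (difference 0.27 ± 0.55, limma adjusted p = 0.759). These values are of 1 of its 3 probes, whose raw signal was brighter on array 2 (461) than on array 1 (215), so its lower place on array 2 is that of the quantile scale and not of the raw signal. The others, detected on array 2 alone, had 7.67 and 4.91 there. Fntb had 6.63 and 6.70 on microvesicle arrays 2 and 1, against 5.91 and 5.88 on cell arrays 1 and 2. Its place above the cells on array 1 is that of the quantile scale and not of the raw signal, which was 220 on microvesicle array 2 and 82.8 on array 1, against 113 and 92.4 on cell arrays 1 and 2. The difference of Fntb was 0.77 ± 0.32 (SE, n = 2 per group, limma adjusted p = 0.223).

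Many genes of these lists appeared on microvesicle array 2 and on no other RNA array. There were 12 such genes among the 33 (36.4%), against 13.1% of all named genes and 0 of the 7 members. No test was made of this share. They are Hsd17b7, Lbr, Msmo1, Pmvk and Sc5d of cholesterol synthesis, Coq2 and Nus1 of the isoprenoid branches, Insig2 and Srebf1 of sterol sensing, and Lipa, Npc2 and Stard4 of sterol uptake and transport, named here after their values were seen. The brightest was the sterol carrier gene Stard4, with a raw signal of 3632 on microvesicle array 2 and 57.9 on array 1, against 58.6 and 55.2 on cell arrays 1 and 2. Hsd17b7, a reductase of late cholesterol synthesis, had 1208 on microvesicle array 2 and 61.4 on array 1, against 67.1 and 63.4 on the cell arrays. The dimmest of the 12 were Srebf1 (114), Pmvk (117) and Lipa (118), at an array median of 90.9. All 12 genes are seen with 1 array and 1 chip, which cannot be told apart.

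**Figure D5:**
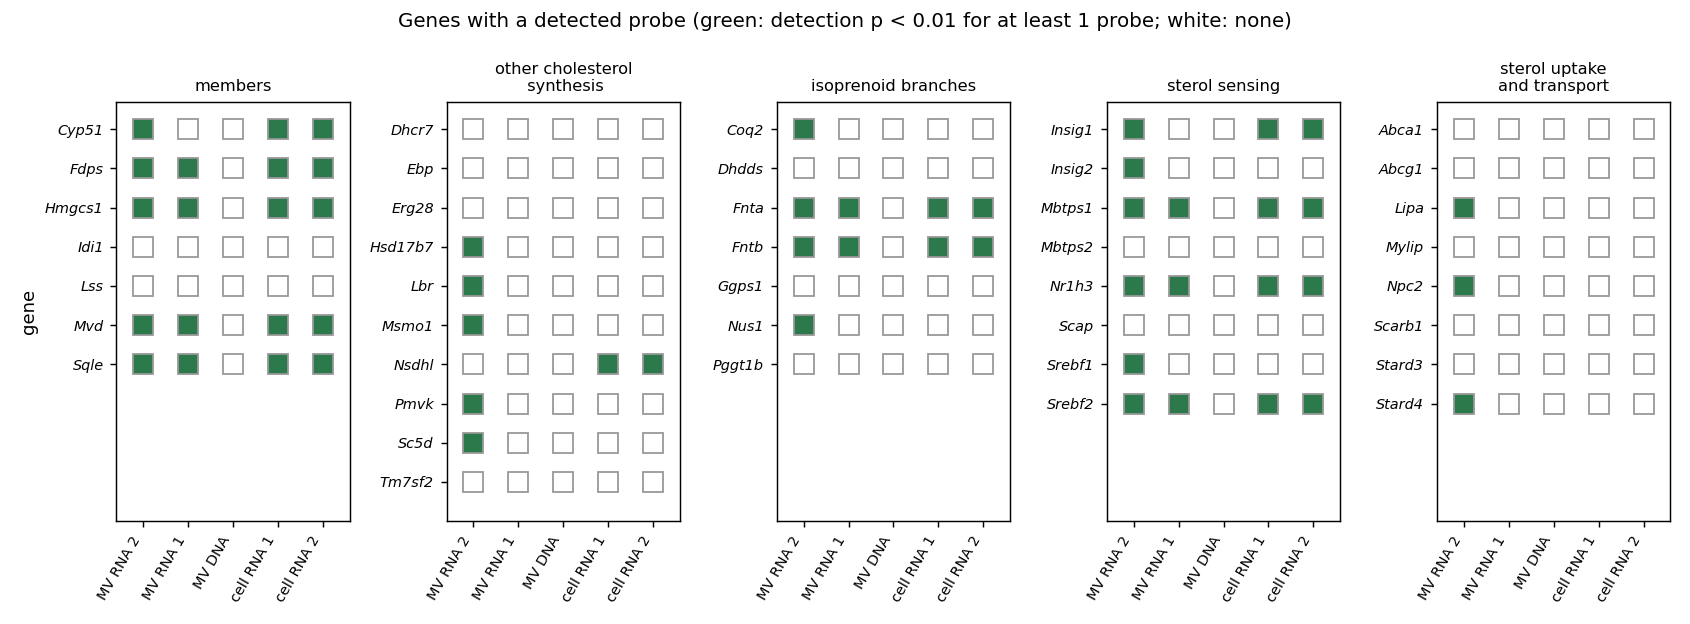
Genes with at least 1 probe detected (green) or none (white) on microvesicle (MV) RNA arrays 2 and 1, the microvesicle DNA array and cell RNA arrays 1 and 2, for the members and 4 further sterol lists. In these lists 12 of 33 genes are green for microvesicle RNA array 2 alone among the RNA arrays, and the DNA column is white throughout. Of the 7 members 0 are, but 5 were detected on both cell arrays and could not be.

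Promoter windows from 250 bases before to 50 after the annotated start were given for 5 members by RefSeq (GRCm38.p6). They are shown because Srebf2 and its partner NF-Y are known to act at such promoters. On the quantile scale the 3 printed belong to the member above the cells (Hmgcs1) and to members below them on microvesicle array 2 (Mvd and Cyp51). With no normalization Cyp51 was 0.05 above the cell mean on that array. The windows are chr13:119690101-119690400 on the plus strand for Hmgcs1, chr8:122443373-122443672 on the minus strand for Mvd and chr5:4104648-4104947 on the minus strand for Cyp51. Capitals mark the sterol regulatory element TCACNCCAC and the NF-Y box CCAAT, on either strand.
Hmgcs1: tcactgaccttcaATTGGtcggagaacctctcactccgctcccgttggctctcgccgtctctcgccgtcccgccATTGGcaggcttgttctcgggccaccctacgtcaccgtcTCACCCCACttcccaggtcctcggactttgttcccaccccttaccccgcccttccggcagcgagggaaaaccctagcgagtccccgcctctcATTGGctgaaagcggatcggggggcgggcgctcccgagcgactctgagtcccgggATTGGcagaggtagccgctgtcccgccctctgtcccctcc
Mvd: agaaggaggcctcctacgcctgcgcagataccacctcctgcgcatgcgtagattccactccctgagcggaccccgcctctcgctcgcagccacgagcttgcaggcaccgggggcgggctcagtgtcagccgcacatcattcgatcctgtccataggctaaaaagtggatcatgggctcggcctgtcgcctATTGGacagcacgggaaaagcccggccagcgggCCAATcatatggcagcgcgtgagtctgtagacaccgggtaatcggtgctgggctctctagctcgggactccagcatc
Cyp51: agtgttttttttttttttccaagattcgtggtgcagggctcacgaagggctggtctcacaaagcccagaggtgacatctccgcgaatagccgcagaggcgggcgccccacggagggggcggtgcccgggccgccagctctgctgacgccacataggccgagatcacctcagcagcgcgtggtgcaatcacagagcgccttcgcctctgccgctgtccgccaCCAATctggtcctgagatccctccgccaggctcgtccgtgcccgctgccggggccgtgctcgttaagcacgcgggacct

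The sterol regulatory element was found in 1 of the 5 windows, that of Hmgcs1, where it begins 137 bases before the start as TCACCCCAC. It was present in 1.24% of all 32851 windows. The NF-Y box was found in 5 of 5 windows, against 37.4% of all windows, with 4 matches in Hmgcs1, 2 in Mvd, 2 in Idi1 and 1 each in Lss and Cyp51. The motifs did not overlap each other. These matches describe the letters of the windows, and a window with none says nothing about the factor.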

How the data were processed

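One table deposited by the authors is not normalized and gives the mean bead intensity of a probe, its standard error, the whole-number count of beads and a detection p-value, per the file headers. They also deposited processed intensity values, background-subtracted and scaled by a method not given in the sources used here, which served as an alternative. The submitters' processing notes name BeadStudio 3.3.

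Raw signals of the 4 RNA arrays were background-corrected and quantile-normalized with neqc (limma 3.58.1, R 4.3.3; offset 16, negative control level from the detection p-values), which compresses dim differences. The 3878 probes whose detection p was under 0.01 on 2 or more RNA arrays entered a two-sided limma fit (lmFit, eBayes) with no block, and p-values were adjusted over all of them by Benjamini-Hochberg. The fit was also run on simulated data with the same spread on all 4 arrays. The microvesicle arrays spread far more than the cell arrays, so that run does not bear on the results here. The DNA array was read as raw signal.

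Gene names came from the platform annotation (23978 of 25697 probes, 1 symbol each), and of these 23962 were found by identifier in RefSeq with 0 symbols changed. The brightest probe stood for a gene in medians. Named by rule are all members, all tested genes of the sterol lists, and the 5 genes nearest to Fdps. The 12 sterol genes detected on microvesicle array 2 alone and the markers Ryr2, Tek and Tagln were named after their values were seen. The members and lists were chosen with earlier results of these data known. The number of arrays limits the precision. Same-numbered replicates are not said to be paired.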

Additional observations from a re-analysis of the deposited data

How the results depend on the processing

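Each tested member probe but Sqle probe 2 kept the direction of its mean difference from the cells under every alternative run, and the calls changed. The count of member probes past the threshold moved off 0 to 3 with a median shift and to 3 with no normalization between arrays (Fdps, Mvd and Sqle probe 1, all lower). It moved to 1 with a variance trend and to 3 with chip as a block (1 higher, Hmgcs1, and 2 lower, Sqle probe 1 and Cyp51). Leaving out 1 array gave 0 to 5, the 5 on dropping microvesicle array 1, and 3 on dropping microvesicle array 2, which is also the comparison within chip 1. Chip 2 holds no cell array. Such fits take the lone microvesicle array to vary like the cells. Over all probes the counts were 1658, 1421 and 687 with a median shift, no normalization and a trend, 179 with no filter, 2703 with the chip block and 0 to 3391 on leaving out 1 array. With replicate number as a block the count was 0 for members and for all probes. The deviations of same-numbered arrays had a weak negative correlation across probes (-0.24).

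The median of the member genes, -1.05, was -0.81 with a median shift, -0.74 with no normalization, -0.50 with no background correction, -1.26 in the processed values, 0.050 with no filter, -0.50 with a filter at detection p 0.05, -0.37 with the chip block and -1.08 to -0.37 on leaving out 1 array. Without microvesicle array 2 Fdps was at -0.42 and Mvd at -0.01, and without microvesicle array 1 at -3.998 and -3.67. Sqle probe 2 changed sign to -0.81 (median shift), -0.74 (no normalization), -0.37 (chip block) and -1.25 (mean of both probes), and leaving out 1 array gave -0.37 (microvesicle array 2) to 0.47 (microvesicle array 1), with -0.06 without cell array 2. Member probes at least 2-fold higher on microvesicle array 2 than on array 1 numbered 3 with a median shift, 4 with no normalization and 2 in the processed values, in place of 1. These counts include Cyp51 (each time) and Sqle probe 1 (with no normalization), which were not above background on array 1. The median over all tested probes was then 0.17, 0.46 and -0.80, in place of -0.72. The share of all tested probes was not computed under these settings, so the counts are no result about the members. At a detection p under 0.05 the DNA array had 1 member, Mvd, in place of 0. The causes were not tested.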

Other observations

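In the authors' processed values Mvd stood at 261 on the microvesicle DNA array, against 34.9 and 486 on microvesicle RNA arrays 2 and 1 and 496 and 489 on cell RNA arrays 1 and 2. The other members had values from -1.2 to 25.1 on the DNA array. The maximum of that table was 2239460 for the DNA array and between 15568 and 44614 for the RNA arrays, while the raw signal of Mvd on the DNA array was 89.4.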
